A study of Homo sapiens with 6 samples.

Results

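The HGF-MET axis was followed in U87 cells, an established human glioblastoma line, through the messenger RNA of 10 genes chosen by symbol: the ligand HGF, the receptor MET and its paralog MST1R, the protease genes HGFAC and ST14, the protease inhibitor genes SPINT1 and SPINT2, and the genes of the signalling proteins GAB1, GRB2 and CBL. All 10 were among the 54628 gene symbols of each library, and 6 of them had enough counts to be tested. Flow cytometry separated the U87 cells after they had shared a culture, and the title of the study concerns the transfer of astrocyte mitochondria. Of the cycling U87 cells, 3 libraries were made from those that had taken up mitochondria (received) and 3 from those without uptake (not received). No other genotype, agent or time is given for either group, and neither the astrocytes' species nor the gate for receipt is given in the sources used here.

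Hepatocyte growth factor is secreted as an inactive single chain, which serine proteases cut into the active ligand. HGFAC (HGF activator) and ST14 (matriptase) are such proteases, and the Kunitz-type inhibitors encoded by SPINT1 and SPINT2 hold them in check. The active ligand binds the tyrosine kinase MET, whose phosphorylated tail recruits the adaptor GRB2 and the docking protein GAB1, which lead to the RAS-ERK and PI3K pathways, while the ubiquitin ligase CBL marks the receptor for breakdown. MST1R (RON) is the receptor of the related ligand MST1. U87 cells are known for making both HGF and MET, an autocrine loop that supports growth and invasion of glioma cells.

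Total counts ran from 17879552 to 21314558 in the received libraries and from 18549585 to 46392491 in the not-received libraries. Not-received replicate 2 was the deepest library and stood apart. Its first principal component score was 44.43, its group's other scores were 13.83 and 14.76, and all received scores were negative. The 5 markers of the glioma line (VIM, NES, CD44, FN1 and CHI3L1) summed to 6765 to 7105 CPM in received and 6488 to 6895 CPM in not-received libraries (CPM, counts scaled to library size with edgeR's TMM factors), and CDKN2A and MTAP, which the line is known to have lost, were listed at 0 counts in every library. The astrocyte genes AQP4, ALDH1L1 and GJB6 were listed at 0 throughout and GFAP at 4 to 8 counts per received library and 6 to 13 counts per not-received library. Whether replicates were separate cultures is not said by the labels, and p-values therefore cover only the spread among these samples. In bulk RNA, fewer cells of a kind and less RNA per cell cannot be told apart.

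HGF was the member that changed. Its counts were 488, 449 and 364 in the received libraries, against 113, 428 and 182 in the not-received libraries. Scaled for depth, HGF stood at 22.7, 24.1 and 20.2 CPM in received cells and at 6.14, 9.43 and 8.72 CPM in not-received cells. The groups did not overlap, and the lowest received library was above 2 times the highest not-received one. HGF averaged 22.3 ± 1.95 CPM in received cells, against 8.10 ± 1.73 CPM in not-received cells (SD, n = 3 each), 2.72-fold higher (log2 fold change 1.44 ± 0.14 SE, 95% interval 1.14 to 1.74, edgeR quasi-likelihood adjusted p = 2.93e-05). By size of increase HGF had rank 47 of the 14100 genes tested. HGF was called in all 13 alternative fits, with log2 fold changes of 1.29 to 1.58, and without the deep not-received replicate 2 the value was 1.58 (edgeR adjusted p = 1.37e-07).

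Of the 6 members tested, 1 was called higher and 0 lower with the adjusted p (edgeR quasi-likelihood, Benjamini-Hochberg over all genes) below 0.05, against 9.21% of all genes called higher and 9.67% called lower. With 18.9% of all genes called in either direction, 1 of 6 is near the background and says nothing about the axis as a group. At an unadjusted p under 0.05 the count was 2 of 6, HGF and MET. The edgeR p of MET had rank 4431 of the 14100 genes tested. A p under 0.05 was thus common, and this count too says nothing about the axis as a group. In 2 of 6 members, again HGF and MET, all received libraries lay above all not-received libraries, which was so for 19.5% of all genes. When library size alone set the scale, 60.3% of all calls were higher, against 48.8% with TMM factors, and the single member called was again HGF.

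**Figure D1:**
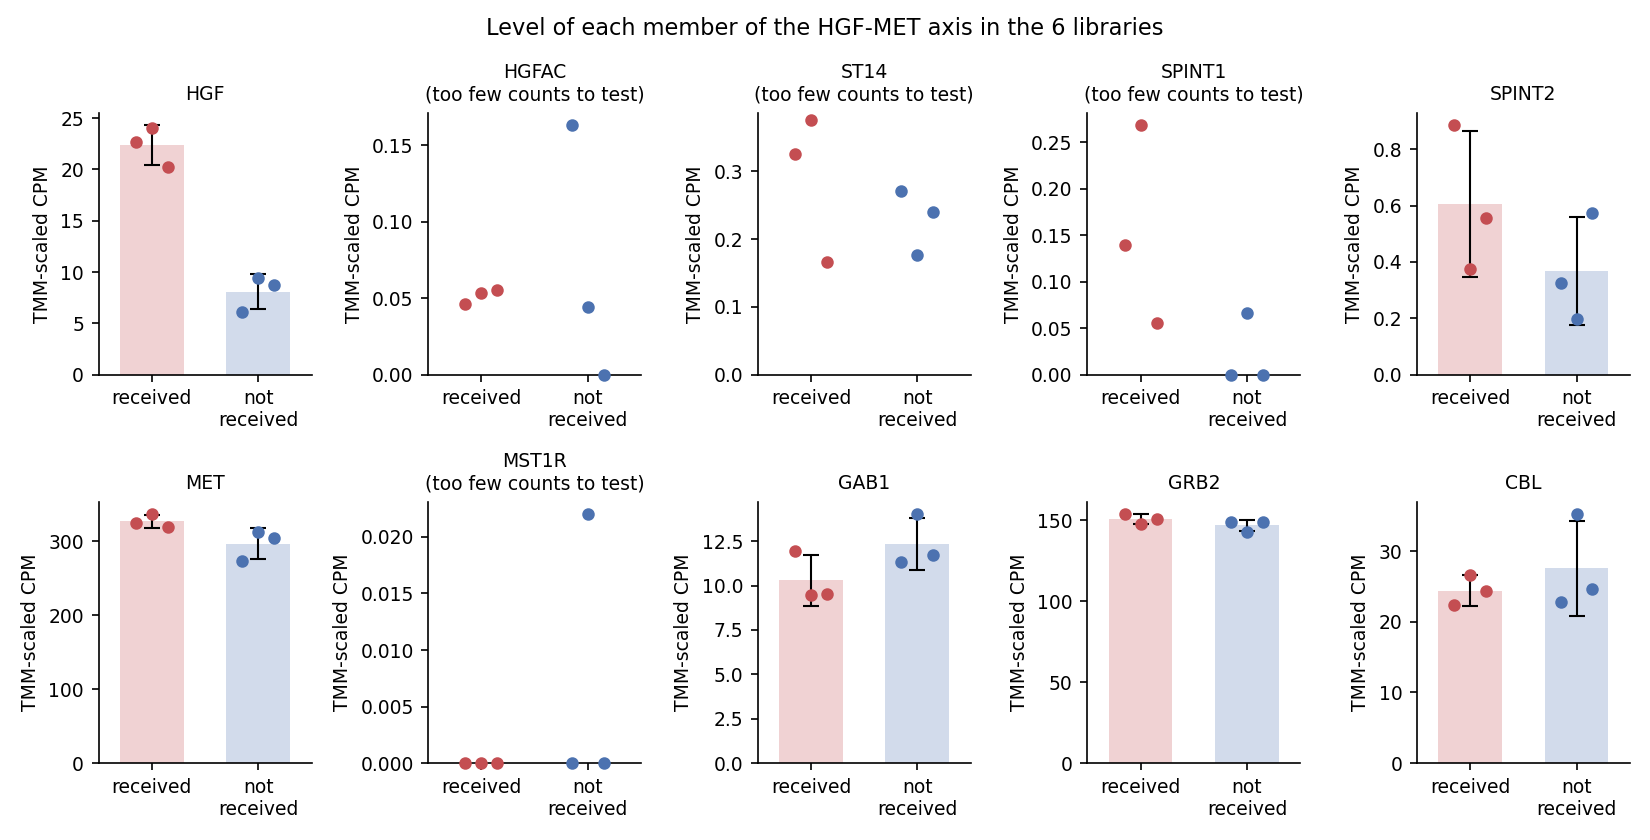
Level of each member in TMM-scaled CPM (vertical axes, linear, each starting at 0) in received and not-received libraries; points are libraries and, for the 6 tested members, bars are means and error bars the SD (n = 3). HGF shows a gap between the groups (20.2 to 24.1 against 6.14 to 9.43 CPM), while HGFAC, ST14, SPINT1 and MST1R stay under 0.4 CPM in every library.

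The stretches of genome around the annotated starts of HGF and MET are shown because these are the ligand that rose and its receptor. They are RefSeq promoter windows of assembly GRCh38.p14, 250 bases before to 50 bases after the start, in the direction of transcription; no build is named for the counts in the labels. Capitals mark letters of the motifs named after the sequences.
HGF, chr7:81769998-81770297, minus strand: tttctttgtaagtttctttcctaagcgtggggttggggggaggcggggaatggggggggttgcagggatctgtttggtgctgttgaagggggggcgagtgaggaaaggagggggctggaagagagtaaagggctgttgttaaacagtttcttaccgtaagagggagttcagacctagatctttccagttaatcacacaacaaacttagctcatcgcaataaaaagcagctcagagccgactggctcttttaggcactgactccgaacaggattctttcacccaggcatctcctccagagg
MET, chr7:116671946-116672245, plus strand: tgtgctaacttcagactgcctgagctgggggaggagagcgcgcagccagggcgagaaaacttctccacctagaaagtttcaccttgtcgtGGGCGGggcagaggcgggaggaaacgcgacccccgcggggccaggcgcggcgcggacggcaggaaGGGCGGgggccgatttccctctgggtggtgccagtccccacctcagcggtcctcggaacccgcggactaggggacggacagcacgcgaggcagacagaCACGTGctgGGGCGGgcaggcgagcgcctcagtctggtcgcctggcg

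The windows differ in base composition. The HGF window is 51.0% G or C and holds 7 CpG steps, more than 36.8% of the 35116 windows in the table, and the MET window is 69.3% G or C and holds 30 CpG steps, more than 77.6%. Both strands were searched for AP-1 (TGANTCA), the GC box (GGGCGG), ETS (CCGGAA), the E-box (CACGTG) and the letters TTGCNNCAA. Also searched were the hypoxia core ACGTG, which lies inside the E-box, STAT (TTCNNNGAA), the TATA box (TATAAA) and NF-kB. The MET window holds 3 GC boxes, of which the nearest upstream one begins at base -95, and 1 E-box just after the start. Bases shortly after this start were found in 0 of 7 GENCODE transcripts of MET on either strand, against 6 of 12 of HGF in sense. The MET positions therefore rest on the RefSeq start alone. A GC box is in 45.0% of all windows and an E-box in 7.26%. The HGF window holds none of the 9 patterns searched, which says only that these letters are not in this window. For the other members, windows were matched for MST1R, HGFAC, SPINT1 and GRB2.

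MET itself was abundant in both groups. It stood at 324, 337 and 319 CPM in the received libraries, against 274, 313 and 304 CPM in the not-received libraries. The lowest received library lay above the highest not-received one, by a margin smaller than the spread within either group. MET averaged 327 ± 9.12 CPM in received cells, against 297 ± 20.5 CPM in not-received cells (SD, n = 3 each), and the difference was not called (log2 fold change 0.14 ± 0.06 SE, 95% interval 0.01 to 0.27, edgeR unadjusted p = 0.0424, adjusted p = 0.135). Leaving out not-received replicate 2 made it a call (log2 fold change 0.18 ± 0.05, edgeR adjusted p = 0.0258), while the adjusted p was 0.0574 to 0.354 in the other 12 alternatives. The span of MET overlaps that of COMETT, a long non-coding RNA gene. Summed counts of COMETT were 22 in received and 37 in not-received libraries, against 18980 and 25582 for MET. Per count of HGF there were 14.3, 14.0 and 15.8 counts of MET in the received libraries, against 44.6, 33.2 and 34.8 in the not-received libraries. These ratios did not overlap. That follows from the HGF difference beside the small one in MET and is not a further result.

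Divided by length, the ligand remained far below its receptor. The lengths are merged exons of the GENCODE 29 basic annotation, which may differ from the gene models the counts were made on. On this scale MET stood at 48.8 ± 1.36 CPM per kilobase in received cells and 44.4 ± 3.07 in not-received cells (SD, n = 3 each), and GRB2 at 37.3 ± 0.761 and 36.3 ± 0.842. HGF stood at 2.34 ± 0.204 CPM per kilobase in received cells, within the spread of CBL (2.17 ± 0.190) and above GAB1 (1.28 ± 0.178). In not-received cells HGF stood at 0.848 ± 0.181 CPM per kilobase, below both CBL (2.45 ± 0.598) and GAB1 (1.53 ± 0.182). SPINT2 followed at 0.336 ± 0.143 in received cells and 0.203 ± 0.106 in not-received cells, and the other 4 members lay under 0.11 CPM per kilobase in every library.

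The paralog receptor MST1R was at the limit of detection, with 0, 0 and 0 counts in the received libraries and 0, 1 and 0 counts in the not-received libraries. A count of 0 allows up to 3 counts per library, that is 0.140 to 0.167 CPM in the received libraries. In not-received replicates 1 and 3 it allows up to 0.163 and 0.144 CPM. The 1 count in not-received replicate 2 was 0.0220 CPM. The limits for 0 counts cover counting error only. Its ligand gene MST1 was present at 7.11 ± 0.819 CPM in received cells, against 5.74 ± 0.488 CPM in not-received cells and was not called (log2 fold change 0.31 ± 0.15 SE, edgeR adjusted p = 0.163). MST1, AXL, CD44 and MMP9 are named here after their values were seen, outside the rule for named genes.

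The protease members HGFAC and ST14 were scarce in both groups. HGFAC had 1, 1 and 1 counts in the received libraries and 3, 2 and 0 counts in the not-received libraries. ST14 had 7, 7 and 3 counts in received and 5, 8 and 5 counts in not-received libraries, 0.289 ± 0.109 and 0.229 ± 0.0486 CPM (SD, n = 3 each), and the groups overlapped. Neither passed the filter on low counts, so no difference was detectable at this depth. HPN, TMPRSS2, TMPRSS13, KLKB1 and F11, further proteases that can cut the HGF precursor, were also below the filter.

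The Kunitz inhibitors were low as well. SPINT1 had 3, 5 and 1 counts in the received libraries and 0, 3 and 0 counts in the not-received libraries, below the filter. Its pooled level was 0.155 CPM (exact 95% Poisson interval 0.0708 to 0.294) in received cells and 0.0354 CPM (0.00731 to 0.104) in not-received cells, and these intervals overlap and cover counting error only. SPINT2 had 19, 7 and 10 counts in received and 6, 9 and 12 counts in not-received libraries, 0.605 ± 0.258 and 0.366 ± 0.192 CPM. The groups overlapped, and the difference was not called (log2 fold change 0.84 ± 0.49 SE, 95% interval -0.22 to 1.90, edgeR adjusted p = 0.252). Low counts need care in these files, since HRAS, a gene that most cells transcribe, was listed at 0 counts in all 6 libraries.

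Plasminogen activators, proteases also known to cut the HGF precursor, were abundant and higher in received cells. PLAU, the urokinase-type plasminogen activator, stood at 547, 604 and 600 CPM in received libraries and 392, 377 and 408 CPM in not-received libraries. PLAT, the tissue-type activator, stood at 141, 145 and 145 CPM in received libraries and 87.4, 98.3 and 97.7 CPM in not-received libraries. In both genes every received library lay above every not-received one. PLAU rose by a log2 fold change of 0.57 ± 0.06 SE (edgeR adjusted p = 3.17e-05) and PLAT by 0.60 ± 0.06 (edgeR adjusted p = 2.74e-05). F12, coagulation factor XII, a relative of HGFAC, rose to 3.39 ± 0.787 CPM in received cells, against 1.76 ± 0.199 CPM in not-received cells (log2 fold change 0.94 ± 0.24, edgeR adjusted p = 0.0161), a call that ended without received replicate 1 or 3 (adjusted p up to 0.0914). Over the 15 ligand, protease and inhibitor genes listed, 6 were tested, of which 4 were called higher (HGF, F12, PLAT and PLAU) and 0 lower. That is 66.7% called against 18.9% of all genes, with a median log2 fold change of 0.72 against -0.0012 over all genes tested. The list is short, holds HGF itself and was chosen with earlier results of these data known.

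The signalling members did not pass the test. GRB2 stood at 154, 148 and 151 CPM in the received libraries and 149, 143 and 149 CPM in the not-received libraries. Its log2 fold change was 0.04 ± 0.05 SE with a 95% interval of -0.08 to 0.16 (edgeR adjusted p = 0.664). GAB1 had 257, 176 and 171 counts in received libraries and 208, 637 and 245 counts in not-received libraries. Scaled for depth this was 10.3 ± 1.43 CPM in received cells, against 12.4 ± 1.46 CPM in not-received cells (SD, n = 3 each), and the groups overlapped through received replicate 1. Its log2 fold change was -0.27 ± 0.13 SE (95% interval -0.55 to 0.01, edgeR adjusted p = 0.161). CBL stood at 22.3, 26.6 and 24.3 CPM in received libraries and 22.9, 35.3 and 24.6 CPM in not-received libraries, with the highest value in the deep not-received replicate 2. Its log2 fold change was -0.20 ± 0.17 SE (95% interval -0.60 to 0.20, edgeR adjusted p = 0.466) and 0.04 ± 0.09 without that library (adjusted p = 0.821), so no direction is given for CBL.

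**Figure D2:**
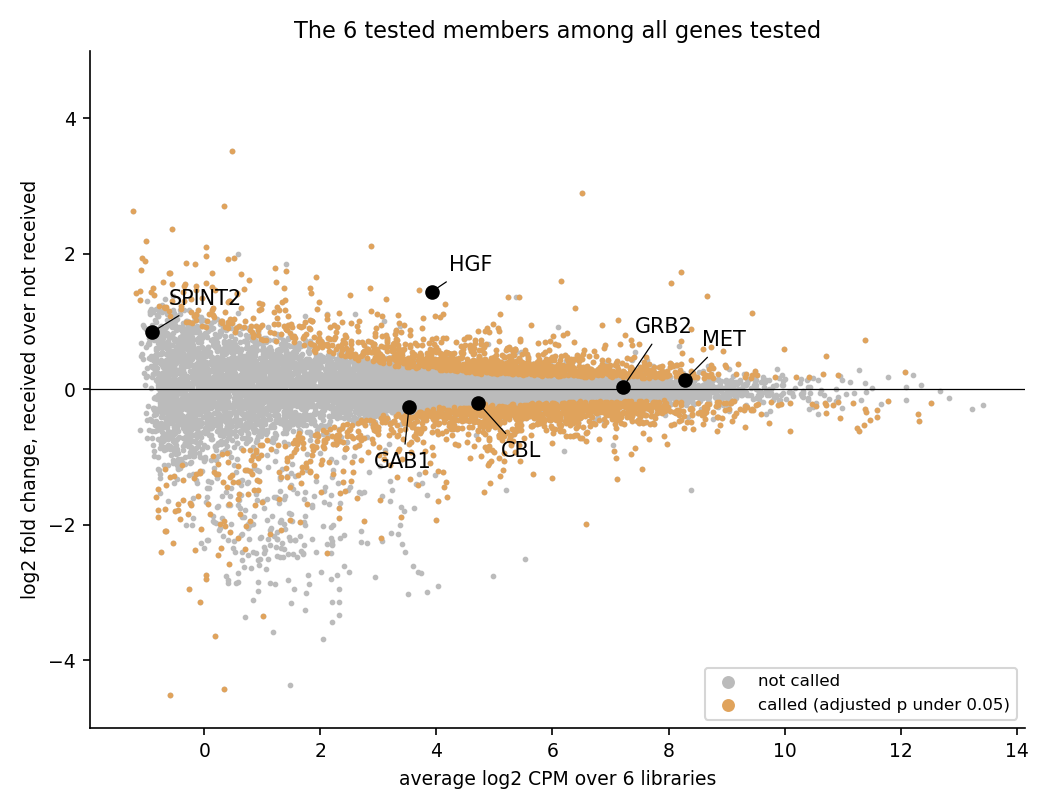
Log2 fold change, received over not received (vertical axis), against average log2 CPM over 6 libraries (horizontal axis) for the 14100 genes tested; grey points were not called, orange points were called at an adjusted p under 0.05 (edgeR), and black points are the 6 tested members. HGF lies at 1.44, above the body of genes of like abundance, and MET, GRB2, GAB1, CBL and SPINT2 lie among the genes that were not called.

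Beyond the members, 7 lists of genes that act with HGF and MET were followed, 122 distinct genes in all with 8 of the members among them. Of the 108 tested, 17 were called higher and 15 lower in received cells, 29.6% against 18.9% of all genes, with a median log2 fold change of -0.05. Scaling by library size alone gave 22 higher and 10 lower, that is 68.8% higher against 53.1% with TMM factors. Without received replicate 1, 2 or 3 the counts were 9, 11 or 13 higher and 6, 4 or 6 lower. Over all genes these 3 fits made 1341, 1295 and 1409 calls in place of 2662. The loss of a call without a received library was therefore common and not particular to any list.

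Receptors that partner MET moved in both directions, with 2 of 15 tested genes higher and 4 lower (median log2 fold change -0.22). Together 40% of this list was called, against 18.9% of all genes. NRP2, a neuropilin that acts as a co-receptor, rose to 465 ± 25.3 CPM in received cells, against 309 ± 41.6 CPM in not-received cells (log2 fold change 0.59 ± 0.09 SE, edgeR adjusted p = 0.00140). FAS, the death receptor that can bind MET, rose by a log2 fold change of 0.58 ± 0.07. ITGA6, the laminin-binding integrin alpha 6 chain, fell to 22.0 ± 1.54 CPM in received cells, against 34.7 ± 2.37 CPM in not-received cells (log2 fold change -0.66 ± 0.08, edgeR adjusted p = 1.47e-04). The receptor tyrosine kinase AXL (-0.26 ± 0.05), the hyaluronan receptor CD44 (-0.23 ± 0.05) and the semaphorin receptor PLXNB2 (-0.28 ± 0.08) also fell. The count of 4 lower was 2 without any 1 received library, and the calls of CD44 and PLXNB2 each ended without any 1 of them (edgeR adjusted p up to 0.0714 and 0.122). The growth factor receptor genes EGFR (log2 fold change -0.22 ± 0.08, edgeR adjusted p = 0.0644) and ERBB2 (-0.0025 ± 0.11) were not called.

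Most of the genes that carry the signal inward did not pass the test. Of 39 adaptors and effectors tested, 3 were called higher and 5 lower (median log2 fold change -0.08), 20.5% against 18.9% of all genes. The adaptor gene SHC1 fell to 357 ± 16.0 CPM in received cells, against 429 ± 16.0 CPM in not-received cells (log2 fold change -0.26 ± 0.06, edgeR adjusted p = 0.00660). The exchange factor genes SOS2 (-0.28 ± 0.08) and RAPGEF1 (-0.26 ± 0.07) fell, and the adaptor gene NCK1 rose (0.33 ± 0.09). These calls are weak, though many calls over all genes were also lost without 1 received library. That of SHC1 ended without received replicate 2, those of SOS2 and RAPGEF1 without any 1 received library (RAPGEF1 also without not-received replicate 2 and with library size alone), and that of NCK1 without received replicate 1 or 2 or not-received replicate 1 (edgeR adjusted p up to 0.124 over these genes). In place of 3 higher and 5 lower, leaving out received replicate 1 gave 0 and 1, received replicate 2 gave 0 and 0, received replicate 3 gave 1 and 1, and not-received replicate 2 gave 1 and 3. Without not-received replicate 1 there was 1 higher gene.

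Genes that restrain or remove the receptor were divided, 3 higher and 3 lower of 21 tested (median log2 fold change -0.11). Calls made up 28.6% of them, against 18.9% of all genes. DCN, the proteoglycan decorin, which binds MET and lowers its level, rose to 6.28 ± 0.607 CPM in received cells, against 3.52 ± 0.470 CPM in not-received cells (log2 fold change 0.85 ± 0.17 SE, edgeR adjusted p = 0.00442). The sheddase gene ADAM17 rose by 0.31 ± 0.08, the receptor inhibitor gene LRIG1 rose by 0.31 ± 0.10 and the phosphatase gene PTPRJ fell by 0.25 ± 0.08 on the log2 scale. The call of DCN stood without any 1 library, while that of ADAM17 ended without received replicate 1 or 2. The calls of LRIG1 and PTPRJ stood without 1 library only where this was not-received replicate 2 for LRIG1 and not-received replicate 3 for PTPRJ (edgeR adjusted p up to 0.156). LRIG1 was also not called by limma-voom (adjusted p = 0.0677), nor PTPRJ with scaling by library size alone (edgeR adjusted p = 0.0641). The 3 higher were 1 without received replicate 1 or 2, and the 3 lower were 0 when a received library was left out and 1 when not-received replicate 2 was.

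Genes that ERK signalling controls split as well, with 3 of 13 tested higher and 2 lower (median log2 fold change 0.02). The share called was 38.5%, against 18.9% of all genes. DUSP6, an ERK phosphatase, rose to 82.5 ± 3.23 CPM in received cells, against 58.4 ± 6.39 CPM in not-received cells (log2 fold change 0.50 ± 0.08, edgeR adjusted p = 9.13e-04), and the transcription factor gene ETV4 rose by 0.31 ± 0.09. SPRY4, a feedback inhibitor of the same pathway, fell to 28.1 ± 2.30 CPM in received cells, against 44.0 ± 6.22 CPM in not-received cells (log2 fold change -0.65 ± 0.10, edgeR adjusted p = 0.00120), and the cyclin gene CCND1 fell by 0.29 ± 0.06 on the log2 scale. The call of ETV4 ended without received replicate 1 or 3 or not-received replicate 1, and that of CCND1 without received replicate 2 (edgeR adjusted p up to 0.127 and 0.0599). The 3 higher were 1 without received replicate 1, and the 2 lower were 1 without received replicate 2.

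Of genes known to respond to HGF in epithelial or glioma cells, 3 of 9 tested were higher and 1 lower (median log2 fold change 0.14). In this short list 44.4% were called, against 18.9% of all genes. MMP9, a gelatinase gene, stood at 3.02, 2.90 and 2.17 CPM in received libraries and 0.163, 0.264 and 0.240 CPM in not-received libraries. This was a log2 fold change of 3.51 ± 0.33 SE (edgeR adjusted p = 1.36e-05). The MMP9 counts were 65, 54 and 39 in received and 3, 12 and 5 in not-received libraries. Its fold change thus rests on a not-received level near the limit of detection. The chemokine gene CXCL8 stood at 458 ± 27.0 CPM in received cells, against 139 ± 25.2 CPM in not-received cells, and PLAU, described above, is also on this list. SNAI2, a transcription factor of epithelial-mesenchymal transition, fell to 88.3 ± 1.24 CPM in received cells, against 118 ± 1.15 CPM in not-received cells (log2 fold change -0.41 ± 0.06, edgeR adjusted p = 2.33e-04). PLAUR, MMP14, PTGS2, VEGFA and MMP1 were not called. These genes have many inducers besides HGF, and which of them acted here was not tested. Of 7 factors reported at the MET promoter 0 were called, by edgeR and in each of the 13 alternatives, DESeq2 and limma-voom included. With 18.9% of all genes called, a list of 7 is too short to tell 0 from that share. An edgeR unadjusted p under 0.05 was reached by 0 of the 7, and by at least 4431 of the 14100 genes tested. HIF1A, the factor with the smallest p, differed by -0.11 ± 0.08 on the log2 scale (edgeR adjusted p = 0.391).

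**Figure D3:**
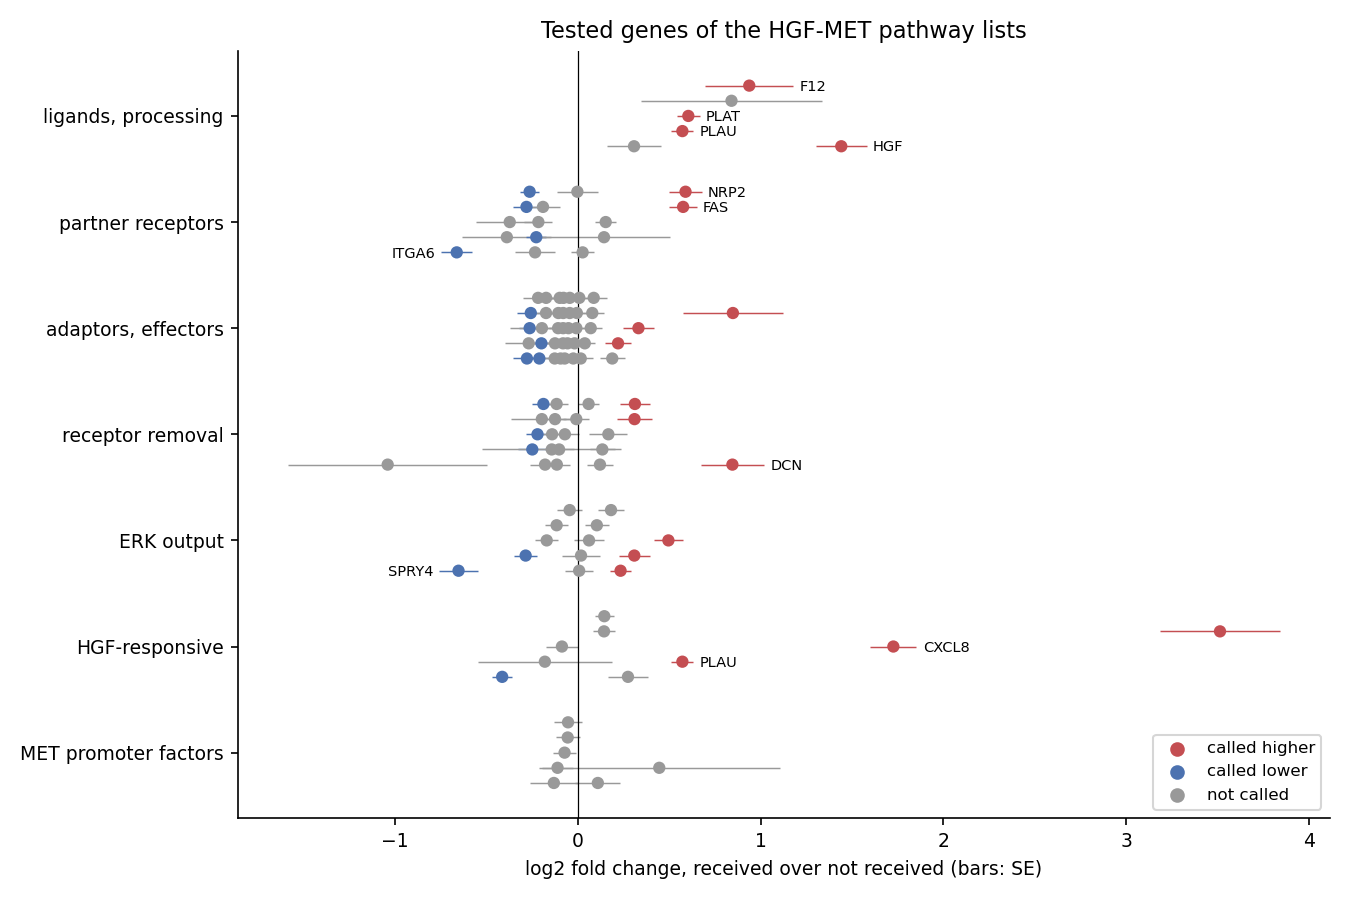
Log2 fold change, received over not received, with its SE (horizontal axis) for each tested gene of the 7 lists (rows); red genes were called higher, blue genes lower and grey genes not called at an adjusted p under 0.05 (edgeR), and called genes beyond 0.5 with a mean log2 CPM of at least 1 are named. In the ligand and processing row 4 of 6 genes, HGF among them, were called higher, against 9.21% of all genes. The adaptor and effector row is centred near 0.

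Over the 6 libraries, the genes whose log2 CPM ran most like that of HGF were RAI14 (Pearson r = 0.999), SEMA3A (r = 0.997) and SEMA3C (r = 0.997), out of 11536 genes compared. All 3 were higher in received cells, with log2 fold changes of 0.35 ± 0.06, 0.86 ± 0.11 and 0.73 ± 0.08. That direction follows from picking them for likeness to HGF over the same libraries. SEMA3C stood at 204 ± 10.9 CPM in received cells, against 122 ± 15.3 CPM in not-received cells. An r of at least 0.95 with HGF was reached by 349 genes, so a close match is common with 6 libraries in 2 groups. The genes most like MET were EBLN3P (r = 0.997), SLFN5 (r = 0.993) and ERAP1 (r = 0.991), of which none was called (edgeR adjusted p = 0.340, 0.0902 and 0.120). The same libraries and depths lie behind every gene in these comparisons.

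Markers of other cell types were examined beside the rise of HGF. Of 8 astrocyte markers only ALDOC and SLC1A3 had enough counts to be tested, and neither was called (edgeR adjusted p = 0.0637 and 0.161). The summed level of the 8 was 71.2 to 82.4 CPM in received libraries and 84.3 to 93.9 CPM in not-received libraries, nearly all of it from those 2 genes. Of 7 microglia or macrophage markers 2 were tested. CD68, a lysosomal protein gene, was called higher, at 481 ± 8.48 CPM in received cells, against 374 ± 21.9 CPM in not-received cells. CSF1R, a macrophage growth factor receptor gene, was not called, at 21.2 ± 1.19 CPM in received cells, against 20.5 ± 0.653 CPM in not-received cells. The summed level of those 7 was 493 to 508 CPM in received and 370 to 410 CPM in not-received libraries, while AIF1, CX3CR1 and P2RY12 were listed at 0 throughout and PTPRC at 0 to 2 counts. The part of CD68-bearing cells of another kind in the HGF difference was not tested beyond these markers. None of the 4 oligodendrocyte markers had enough counts to be tested, and of 4 endothelial markers PECAM1 alone was tested and was not called (edgeR adjusted p = 0.566). Of 5 neuronal markers 3 were tested, of which SNAP25 was called lower in received cells (9.51 ± 1.22 against 13.3 ± 0.230 CPM). The markers of the glioma line itself moved both ways beside HGF. VIM (log2 fold change 0.26 ± 0.07) and NES (0.46 ± 0.09) were called higher, CD44 (-0.23 ± 0.05) and CHI3L1 (-0.90 ± 0.10, edgeR adjusted p = 3.75e-05) lower, and FN1 (-0.36 ± 0.16) was not called. Their part in the HGF difference was not tested.

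**Figure D4:**
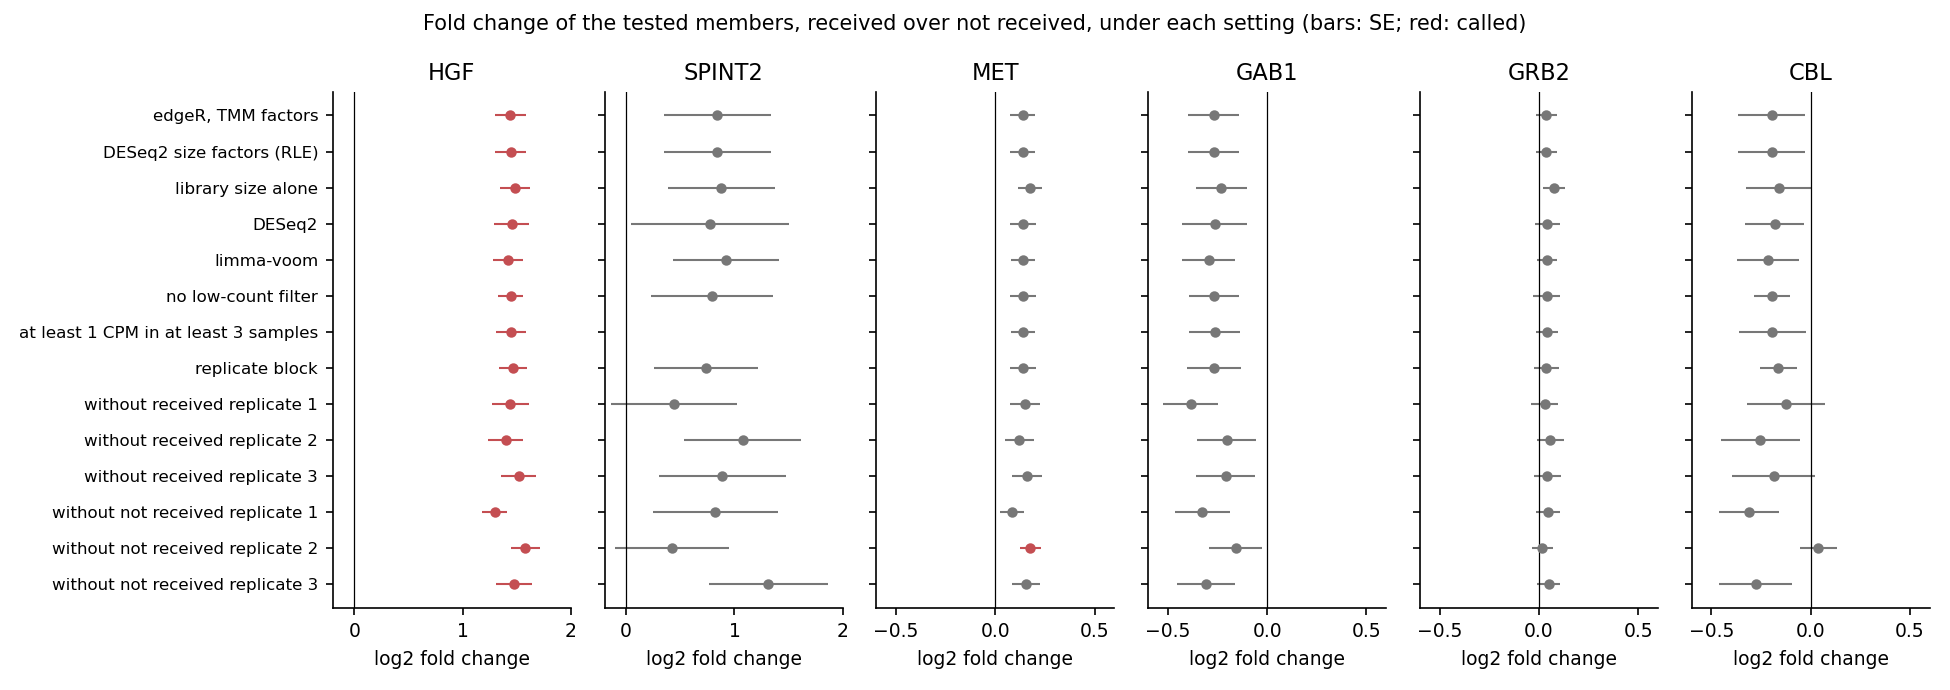
Log2 fold change, received over not received, with its SE (horizontal axes) for the 6 tested members under 14 settings (rows, from the test as reported to each library left out); red points were called at an adjusted p under 0.05. HGF is called in every row, MET only without not-received replicate 2, and the sign of CBL turns without that library.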

How the data were processed

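Each of the 6 libraries came as 1 deposited table of raw counts for each gene symbol, which the authors had not normalized. Poly-A RNA was sequenced as 150 bp paired-end reads, per the labels' protocols. DESeq and R 3.6.1 appear in the submitters' processing notes. Aligner, counting program, build, annotation and strandedness: not given in the sources used here. The titles give each library's group and replicate number, and 0 other sample columns were left unused. Within groups, chi-square per gene was 3.40 to 20.6, so no libraries agreed within sampling noise.

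Genes were filtered with filterByExpr of edgeR 4.0.16 (14100 of 28833 genes with a count were kept). TMM factors set the scale, and glmQLFit (robust) with glmQLFTest in R 4.3.3 compared received over not received by group alone. Benjamini-Hochberg adjustment covered all genes tested, and an adjusted p under 0.05 is a call. The SE is the absolute log2 fold change over the root of F, and 95% intervals use the fit's t distribution. The biological coefficient of variation was 9.47%. Similarity to HGF and MET used log2 CPM with a prior count of 2. Alternatives were DESeq2 1.42.0, limma-voom (limma 3.58.1), other scalings and filters, a replicate block and each library left out. On simulated counts for received over not received (13945 genes), edgeR recovered 85 of 100 genes changed 1.5-fold and 100 of 100 changed 3-fold, with 7 false calls among 192. Changes were planted only in genes with a mean above 2 CPM, and all genes shared the same dispersion. These rates therefore do not cover low genes such as SPINT2, nor the larger spread of not-received replicate 2.

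The members and lists were chosen with earlier results of these data known. The text names all 10 members and, from each list, up to 4 called genes with the largest absolute fold change and a mean log2 CPM of 1 or more (or, with no call, the smallest p), plus the 3 genes most correlated with HGF and with MET. EGFR, ERBB2, the cell markers and the uncalled list genes are named as context, after their values were seen. Promoter windows (RefSeq, GRCh38.p14) matched 6 of the 10 members. A called list gene is counted but not reported here.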

Additional observations from a re-analysis of the deposited data

How the results depend on the processing

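HGF kept its direction and its call in all 13 alternatives. MET kept its direction and was called only without not-received replicate 2, GAB1, GRB2 and SPINT2 kept theirs and were called in none (SPINT2 was not tested under the filter of 1 CPM in 3 samples), while CBL was -0.31 to 0.038 with 1 library left out, the positive value being that without not-received replicate 2. The count of members called higher was 1 to 2, and of members called lower 0, with 1 library left out. Over all genes, 1298 were higher and 1364 lower with TMM factors; these were 604 to 1356 and 691 to 1579 with 1 library left out, and 2084 were lower with no low-count filter. Over the 7 lists 17 were higher and 15 lower, or 9 to 18 and 4 to 16 with 1 library left out. With DESeq2 or the replicate block 1 adaptor or effector was called higher in place of 3. Library size alone gave 2 adaptors and 1 receptor-removal gene lower in place of 5 and 3, and 5 HGF-responsive genes higher in place of 3. The cause of these shifts was not tested. Leaving out 1 received library gave 1295 to 1409 calls and 1 not-received library 2309 to 2935, at the same number of samples.

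Same-numbered libraries of the groups did not deviate together (r = -0.20, -0.07 and 0.05 for numbers 1, 2 and 3). With 3 libraries per group this cannot settle whether the numbers pair the samples, and the labels do not say. With the replicate number as a block, 1252 genes were higher and 1384 lower, 1 member was called higher and 0 lower, 15 listed genes were higher and 15 lower, and HGF stood at 1.47 (edgeR adjusted p = 1.23e-06). Received replicate 1 correlated best with not-received replicate 2, not with its own number. Without a low-count filter MST1R, HGFAC, ST14 and SPINT1 entered the test and none was called (edgeR adjusted p = 0.348 to 0.929). Depth limits what can be said of these 4 genes.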
